A study of Mus musculus with 12 samples.

Results

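The histone genes are described here in 12 murine neuroblastoma tumors whose RNA was measured on Affymetrix Clariom S arrays for mouse genes, each tumor on 1 array. Members were the probe sets whose platform symbol starts with a histone cluster prefix (Hist1h, Hist2h, Hist3h, Hist4h, H1f, H2ac, H2bc, H3c or H4c). This gave 57 genes among 22206 probe sets, of which 19572 carry a symbol, and each of the 57 genes had a single probe set. They comprise 8 H1 genes, 13 H2A genes, 15 H2B genes, 10 H3 genes and 11 H4 genes. By the RefSeq annotation, 46 of them lie on chromosome 13, 8 on chromosome 3, 2 on chromosome 6 and 1 on chromosome 15. No probe set carried the platform symbol H1f0 or H1f4. A further 3 probe sets with a histone cluster name only among their older names were added in 1 alternative. Variants encoded outside the clusters were compared as a separate list. Among the 57, H1f8 and H3c1 had mean signals among the lowest 25% of probe sets.

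The tumors were grown from neuroblastoma cells inoculated into A/J mice, an inbred strain, and no transgene or other allele is named in the labels. The groups were 3 tumors each at 24 h, 48 h and 72 h of high intensity focused ultrasound (HIFU), and 3 untreated control tumors. HIFU breaks up tissue with focused sound waves, here by mechanical fractionation. The times were read as hours since HIFU, which the labels do not spell out, and neither the ages of the mice nor the cell line is given in the sources used here. Because no label assigns each tumor to a mouse of its own, the p-values here cover only the spread between these samples, which may be technical.

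Histones package DNA into nucleosomes. H2A, H2B, H3 and H4 form the core around which DNA is wrapped, and H1 binds the linker DNA where it enters and leaves the core. Most of these genes lie in clusters and are replication-dependent, so their mRNAs are made mainly in S phase, and most of those mRNAs end in a stem-loop instead of a poly(A) tail. Replication-independent variants are encoded by genes outside the clusters and are expressed through the cell cycle. Histone mRNA is therefore widely read beside DNA replication transcripts in proliferating tumors.

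Values are the log2 signals deposited by the authors, from 1.75 to 19.93 over all probe sets, and a difference of 1 corresponds to a 2-fold change if the base is 2, as the range of values implies. A signal depends on the probes as well as on the RNA, so levels are compared between tumors and never between genes. The array medians lay between 5.43 and 5.68, so a difference is largely one against the rest of the array. HIFU_72h replicate 2 stood apart from the other tumors, at one end of a first principal component (43.6% of the variance). Of 17 neuroblastoma markers 14 were measured, and 0 of the 14 had a mean signal among the lowest 25% of probe sets. Chgb, a granin of secretory granules, lay between 13.45 and 17.63 in the 12 tumors, and Dbh, the enzyme that makes noradrenaline, between 11.99 and 16.46. These 2 were picked from the 14 outside the rule for naming genes. Set against the control means, the median of the 14 ran from -1.48 on HIFU_72h replicate 2 to 1.12 on control replicate 3. The 3 arrays per group limit the precision.

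The histone genes were lower than in control tumors at 24 h and 48 h as a group and close to control at 72 h, and no single gene passed the test. Over the 57 genes the median log2 difference from control was -0.49 at 24 h, -0.61 at 48 h and -0.12 at 72 h, against 0.00, 0.01 and -0.06 over all probe sets. The difference was below 0 for 48 genes at 24 h, 47 genes at 48 h and 39 genes at 72 h, where 49.9%, 49% and 56.5% of all probe sets were below 0. Skeletal muscle markers differed between the same groups: their median lay 2.27 to 5.51 above the control mean on the 9 HIFU arrays, against -1.40 to 2.06 on the controls. With that median as a covariate, an alternative chosen after seeing the data, the histone median was -0.14 at 24 h, -0.23 at 48 h and 0.15 at 72 h. This fit takes the muscle slope from the spread within groups. The muscle medians of HIFU and control arrays do not overlap, so the adjusted histone medians rest on extrapolation. The part of muscle in the histone differences was not tested. In bulk tumor RNA, fewer cells that express a gene and less of its RNA per cell cannot be told apart.

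Differences were tested with limma over all 22206 probe sets, with a Benjamini-Hochberg threshold of 0.05. At 24 h 0 of 57 histone genes passed in either direction, where 0.054% of all probe sets passed, and the smallest adjusted p among the histone genes was 0.329. At 48 h 0 of 57 passed, where 0.0045% of all probe sets passed, and the smallest adjusted p was 0.202. At 72 h 0 of 57 passed, where 0.00901% of all probe sets passed, and the smallest adjusted p was 0.447. At an unadjusted p under 0.05, limma counted 21 histone genes lower at 24 h, 25 at 48 h and 0 at 72 h, where 5.86%, 8.01% and 5.39% of all probe sets were lower. It counted 0 histone genes higher at each time, where 3.98%, 5.3% and 5.85% of all probe sets were higher. Averaged over the 3 times, the difference from control passed the adjusted threshold for 0 of 57 histone genes, where 0.018% of all probe sets passed. With array weights, an alternative that down-weights more variable arrays, 10 histone genes passed at 24 h (9 with the identical H3c14 and H3c15 counted once) and 14 at 48 h, all lower, where 1118 and 944 probe sets passed. Missing the threshold with 3 arrays per group does not show that a gene did not differ.

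The single arrays show the same order. All 3 HIFU_24h arrays lay below all 3 controls for 23 of the 57 genes, where 7.68% of all probe sets did so. All 3 HIFU_48h arrays lay below the controls for 26 genes, where 11.7% of all probe sets did so. At 72 h only 2 genes did, H1f1 and H2bc8, where 10.1% of all probe sets did so. For 0 genes did all 9 HIFU arrays lie below all controls, where 1.65% of all probe sets did so. The median over the 57 genes, each set against its control mean, was -0.70, -0.25 and -0.59 on the HIFU_24h arrays and -0.45, -0.79 and -0.39 on the HIFU_48h arrays. It was -0.01, -0.49 and 0.11 on the HIFU_72h arrays, against -0.11, 0.14 and 0.01 on the controls. All 6 arrays of 24 h and 48 h were therefore below the 3 controls, while HIFU_72h replicate 2 alone stood below them at 72 h.

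The types differed in how far they lay from control, a difference between types that was not tested. The median difference over the 13 H2A genes was -0.74 at 24 h, -1.16 at 48 h and -0.11 at 72 h. Over the 15 H2B genes it was -0.49, -0.77 and -0.18 at the same times. Over the 10 H3 genes it was -1.09, -0.68 and -0.41, so the H3 genes were farthest from control at 24 h and the H2A genes at 48 h. Over the 11 H4 genes it was -0.19, -0.27 and 0.01, and over the 8 H1 genes -0.08, -0.35 and -0.30. Genes of a type share sequence, and their probes may pick up one another's transcripts, so the genes of a type are not independent measurements.

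**Figure D1:**
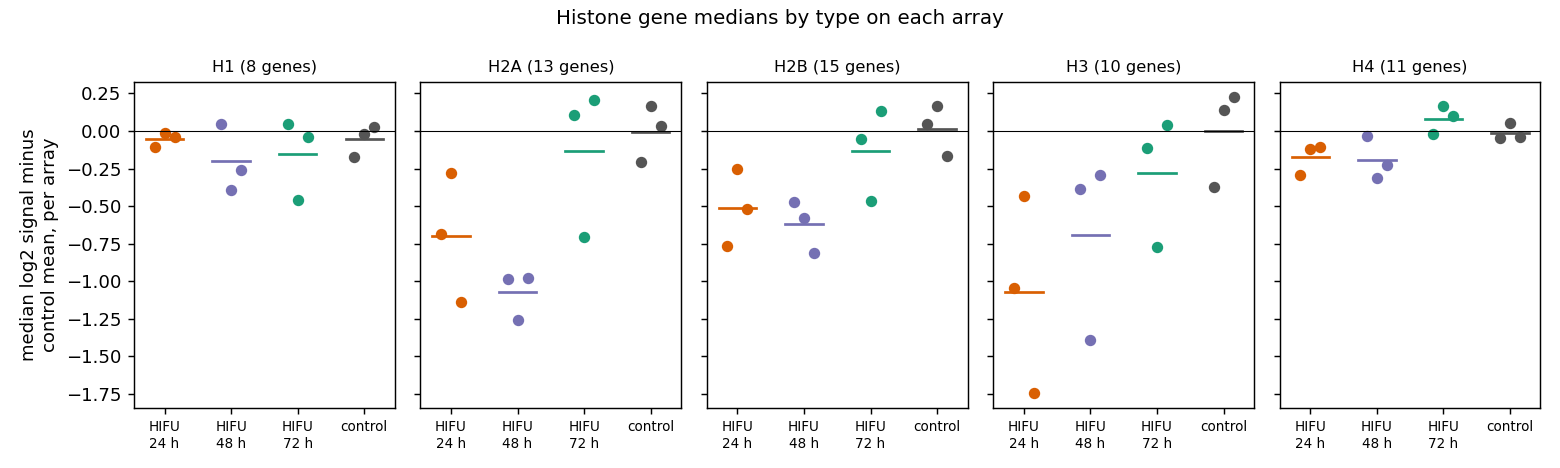
Median log2 signal of the genes of each histone type on each array, after subtracting each gene's control mean, by group, with 1 panel per type. Points are arrays and lines are group means. The H2A medians lie at -0.98 to -1.26 on the HIFU_48h arrays and at -0.21 to 0.16 on the controls, while the H4 medians stay within -0.31 to 0.16 on all arrays.

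**Figure D2:**
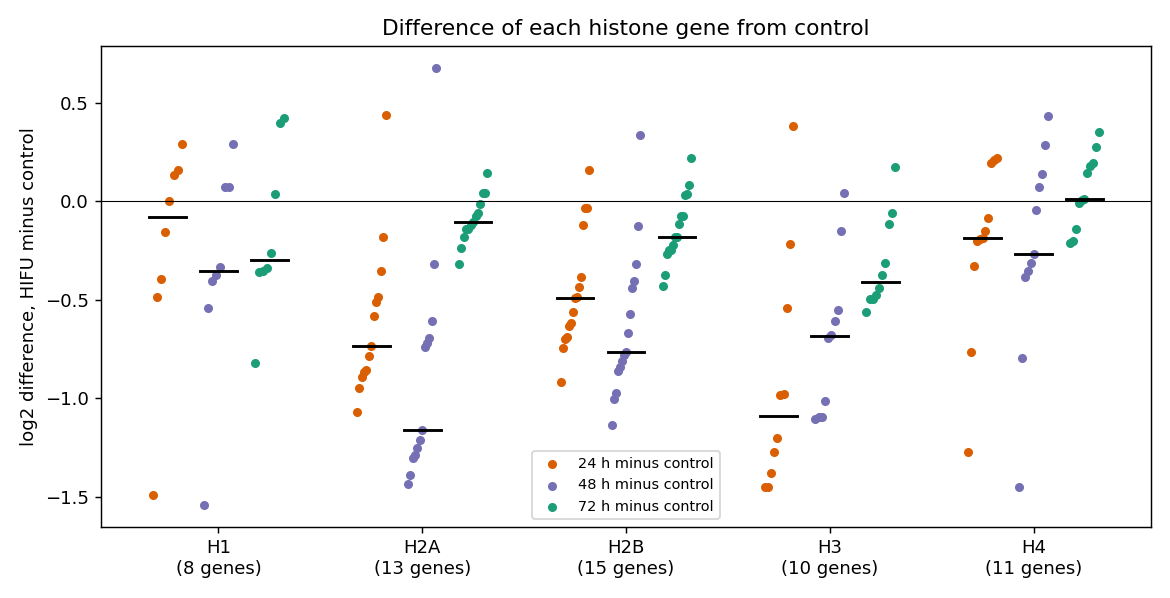
Log2 difference from control of each of the 57 histone genes by type and time. Each point is a gene and each black line is the median of the type, which for H2A is -0.74 at 24 h, -1.16 at 48 h and -0.11 at 72 h. Few genes lie above 0 at 24 h and 48 h.

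H2A and H2B pair into dimers, which join a tetramer of H3 and H4 in the nucleosome. The H2A gene farthest below control at 48 h was H2ac15 (probe set TC1300001558.mm.2). Its signals were 15.31, 15.63 and 14.48 at 24 h, 14.74, 14.49 and 14.46 at 48 h and 16.30, 15.29 and 16.52 at 72 h, against 15.90, 16.25 and 15.84 in controls. The 24 h and 48 h arrays all lay below the controls, and 2 of the 72 h arrays lay above them. The difference was -0.86 ± 0.36 (SE) at 24 h (limma adjusted p = 0.477), -1.43 ± 0.36 at 48 h (adjusted p = 0.203) and 0.04 ± 0.36 at 72 h (adjusted p = 0.984).

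H2ac24 (TC1300001565.mm.2) had signals of 16.07, 16.25 and 15.58 at 24 h, 15.71, 15.41 and 15.54 at 48 h and 17.07, 16.06 and 17.08 at 72 h, against 16.62, 17.02 and 16.93 in controls. Again the 24 h and 48 h arrays did not overlap with the controls and the 72 h arrays did. Its difference was -0.89 ± 0.30 (SE) at 24 h and -1.30 ± 0.30 at 48 h (limma adjusted p = 0.396 and 0.202). H2ac11 (TC1300001576.mm.2) averaged 16.03 ± 0.37 (SD, n = 3) at 24 h, 15.38 ± 0.28 at 48 h and 16.66 ± 0.57 at 72 h, against 16.77 ± 0.29 in controls. Its 48 h difference was -1.39 (limma adjusted p = 0.202). H2ac12 (TC1300001574.mm.2) averaged 15.37 ± 0.48 at 24 h, 15.08 ± 0.09 at 48 h and 16.10 ± 0.57 at 72 h, against 16.24 ± 0.18 in controls, and all 6 arrays of 24 h and 48 h lay below the controls. H2ac22, the H2A gene with the highest mean signal, differed by -0.51 at 24 h, -0.72 at 48 h and -0.07 at 72 h.

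Of the 13 H2A genes, 12 were below control at 24 h and at 48 h, and 10 at 72 h. For 8 genes at 24 h and 10 at 48 h the HIFU arrays lay below all controls, and for 0 at 72 h, where 7.68%, 11.7% and 10.1% of all probe sets did so. The exception among differences at 24 h and 48 h was H2ac6, chosen after its values were seen, which differed by 0.44 ± 0.50 (SE) at 24 h and 0.68 ± 0.50 at 48 h. Its signals were 8.17, 7.33 and 8.01 at 24 h, 7.29, 9.45 and 7.49 at 48 h and 7.29, 7.63 and 7.40 at 72 h, against 7.04, 7.17 and 7.99 in controls. Only HIFU_48h replicate 2, at 9.45, stood clear of the control range by more than 1 unit.

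Among the 15 H2B genes, H2bc13 (TC1300001555.mm.2) had the smallest p of the F test over the 3 times. Its signals were 12.23, 13.11 and 12.16 at 24 h, 12.54, 12.25 and 12.45 at 48 h and 13.50, 12.95 and 13.57 at 72 h, against 13.52, 13.33 and 13.40 in controls. All 6 arrays of 24 h and 48 h lay below the 3 controls. The differences were -0.92 ± 0.28 (SE) at 24 h, -1.0 ± 0.28 at 48 h and -0.08 ± 0.28 at 72 h (limma adjusted p = 0.352, 0.224 and 0.958). H2bc3 (TC1300000259.mm.2) was farthest from control at 48 h, at -1.13 ± 0.29, and averaged 9.60 ± 0.40 (SD, n = 3) there against 10.74 ± 0.34 in controls. H2bc12 (TC1300000191.mm.2) averaged 13.39 ± 0.13 at 24 h, 13.19 ± 0.28 at 48 h and 14.04 ± 0.23 at 72 h, against 13.96 ± 0.22 in controls. H2bc11 (TC1300000192.mm.2) differed by -0.39 at 24 h, -0.86 at 48 h and -0.07 at 72 h.

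Of the H2B genes, 14 were below control at 24 h and at 48 h, and 11 at 72 h. Their HIFU arrays lay below all controls for 5 of 15 genes at 24 h, 10 at 48 h and 1 at 72 h, where 7.68%, 11.7% and 10.1% of all probe sets did so, so that the count at 72 h is near that share. H2bc18, the H2B gene with the highest mean signal, lay on chromosome 3 and overlapped with controls at each time, with differences of -0.03, -0.13 and -0.38. H2bc4 differed by 0.16, 0.34 and 0.22 and was the H2B gene above control at all 3 times. H2ac1 and H2bc1, which encode testis-specific histones, differed by -0.18 and -0.03 at 24 h and by -0.74 and -0.32 at 48 h. H2bc4, H2ac1 and H2bc1 were chosen after their values were seen.

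Many H2A and H2B genes lie head to head and are transcribed away from each other, so that a pair shares the stretch between its start sites. In the RefSeq promoter table (build GRCm38.p6) 52 of the 57 genes have a sequence. Only pairs with starts close together were counted. This gave 7 pairs with both genes measured, with 163 to 280 bases between the starts. Pairs with starts farther apart were left out. For 6 pairs the whole stretch is in the table, and the 3 shortest are shown as examples, chosen with the matches known. All 6 stretches hold CCAAT, and 2 of the 6 hold the octamer, both of them among those shown. They run 5′ to 3′ on the strand of the H2B gene, from the base after the H2A start to the base before the H2B start. Capitals mark the CCAAT box (CCAAT), the TATA box (TATAAA) and the octamer bound by POU factors (ATTTGCAT), each on either strand. The stretches lie at chr13:21753913-21754075 (plus strand), chr13:22035644-22035820 (plus strand) and chr13:23571221-23571399 (plus strand).
H2ac15-H2bc15: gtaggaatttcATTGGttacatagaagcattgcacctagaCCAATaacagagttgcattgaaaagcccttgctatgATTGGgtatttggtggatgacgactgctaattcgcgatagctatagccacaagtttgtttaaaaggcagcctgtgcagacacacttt
H2ac12-H2bc12: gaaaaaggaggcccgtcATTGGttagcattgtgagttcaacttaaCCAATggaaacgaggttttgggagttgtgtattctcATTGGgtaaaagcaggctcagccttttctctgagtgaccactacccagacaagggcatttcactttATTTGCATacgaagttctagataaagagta
H2ac8-H2bc8: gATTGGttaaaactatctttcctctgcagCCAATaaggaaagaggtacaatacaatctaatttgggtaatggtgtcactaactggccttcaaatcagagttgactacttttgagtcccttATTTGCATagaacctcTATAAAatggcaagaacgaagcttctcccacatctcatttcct

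Both genes were below control in 7 of 7 counted pairs at 24 h and at 48 h. This is near the share over all members, since 12 of 13 H2A and 14 of 15 H2B genes were below control at each of these times. The H2A gene usually lay farther from control than its partner, as the H2A median did from the H2B median. H2ac6 and H2bc4, which lay above control at both times, are in none of the 7 pairs. At 24 h the H2A difference was more negative than that of its H2B partner in 7 of 7 pairs, at 48 h in 6 of 7 and at 72 h in 4 of 7. For H2ac15 and H2bc15 the differences were -1.43 and -0.81 at 48 h, and for H2ac12 and H2bc12 they were -1.16 and -0.77. H2ac8 and H2bc8 were the exception at 48 h, at -0.69 and -0.84. H2ac13 and H2bc13 differed by -1.29 and -1.0, and H2ac11 and H2bc11 by -1.39 and -0.86. Whether the partners of a pair differ from each other was not tested. The pair members H2ac8, H2bc8, H2ac13, H2bc15 and H2bc22 were chosen after their values were seen.

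**Figure D3:**
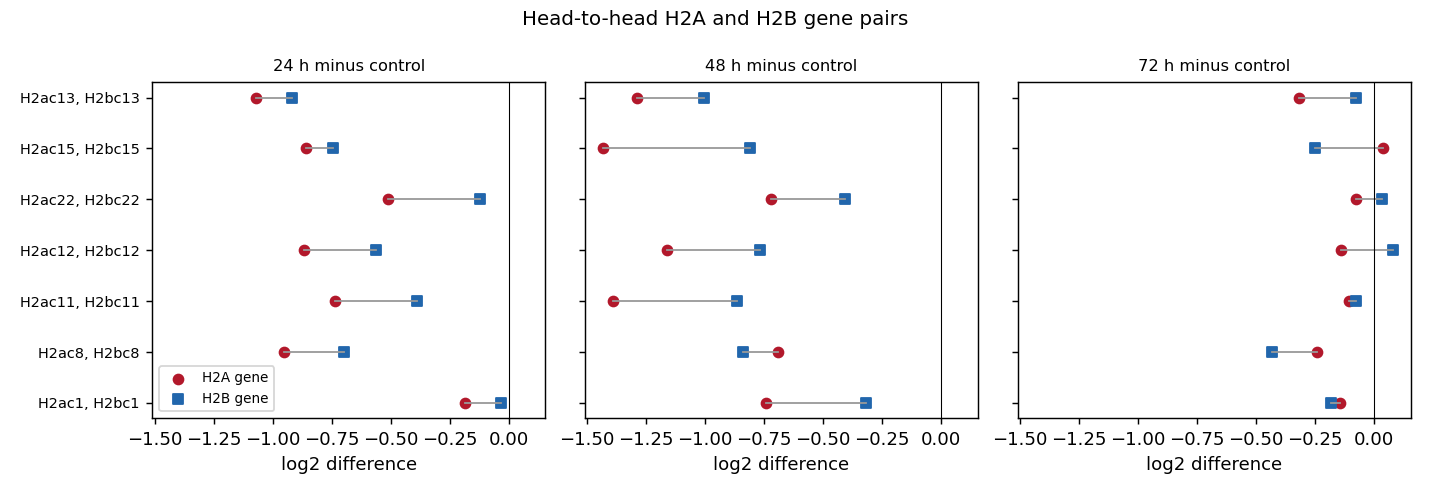
Log2 differences from control of the H2A gene (circle) and H2B gene (square) of each of the 7 head-to-head pairs counted, with 1 panel per time. At 48 h the H2A circle lies left of its partner for 6 of the 7 pairs, and at 72 h all values lie between -0.43 and 0.08.

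H3 carries many of the histone tail modifications. H3c14 and H3c15, on chromosome 3, gave identical signals on all 12 arrays, so their probe sets could not be told apart and are in effect 1 measurement, although the counts over 57 genes and over 10 H3 genes include both. Counted once, they leave 9 H3 genes, with a median of -0.98 at 24 h, and 56 histone genes, with medians of -0.49, -0.61 and -0.12. Of the 56 genes 20 were lower at 24 h and 24 at 48 h at an unadjusted p under 0.05 in limma, where 5.86% and 8.01% of all probe sets were. The signals of H3c15 (TC0300002500.mm.2) were 14.48, 15.74 and 14.16 at 24 h, 15.34, 14.15 and 15.95 at 48 h and 15.74, 15.53 and 15.97 at 72 h, against 15.87, 16.40 and 16.46 in controls. All 3 arrays of 24 h lay below the controls, while HIFU_48h replicate 3 lay among them. The difference was -1.45 ± 0.48 (SE) at 24 h, -1.10 ± 0.48 at 48 h and -0.50 ± 0.48 at 72 h (limma adjusted p = 0.381, 0.354 and 0.765).

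H3c13 (TC0300000934.mm.2), on the same chromosome, differed by -1.27 at 24 h, -1.10 at 48 h and -0.44 at 72 h, with a spread of 0.76 (SD, n = 3) at 24 h against 0.41 in controls. H3c10 (TC1300000174.mm.2) had signals of 13.40, 14.34 and 12.78 at 24 h, 14.31, 13.37 and 14.36 at 48 h and 14.79, 13.57 and 14.82 at 72 h, against 14.38, 14.75 and 14.99 in controls. Its 24 h and 48 h arrays lay below the controls, the nearest of them by less than 0.05. Its difference was -1.20 ± 0.46 (SE) at 24 h and -0.69 ± 0.46 at 48 h (limma adjusted p = 0.439 and 0.533). Of the 10 H3 genes 9 were below control at each of the 3 times, or 8 of 9 with H3c14 and H3c15 counted once. The arrays lay below all controls for 6 genes at 24 h (5 of 9 counted once) and for 1 at 48 h, where 7.68% and 11.7% of all probe sets did so, so that the count at 48 h is near that share. H3c8, chosen after its values were seen, spanned 9.89 to 11.88 at 24 h, against 11.66 to 12.88 in controls. H3c1, among the lowest 25% of probe sets, differed by 0.38, 0.04 and -0.11.

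The H4 genes included some far below control and some near it. H4c14 (TC0300002504.mm.2) had signals of 12.59, 13.72 and 11.95 at 24 h, 12.81, 12.06 and 12.85 at 48 h and 14, 13.56 and 13.87 at 72 h, against 14.03, 14.43 and 13.61 in controls. Only the 48 h arrays lay wholly below the controls. The difference was -1.27 ± 0.41 (SE) at 24 h, -1.45 ± 0.41 at 48 h and -0.21 ± 0.41 at 72 h (limma adjusted p = 0.376, 0.226 and 0.907). H4c4 (TC1300000250.mm.2) had signals of 12.45, 13.17 and 12.39 at 24 h, 12.76, 12.28 and 12.87 at 48 h and 13.07, 13.29 and 13.34 at 72 h, against 13.29, 13.62 and 13.39 in controls. Its 6 arrays of 24 h and 48 h lay below all controls, and its differences were -0.76 ± 0.26 and -0.80 ± 0.26.

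H4c2, chosen after its values were seen, had signals of 14.07, 14.11 and 14.18 at 24 h, 14.20, 14.12 and 14.15 at 48 h and 14.37, 14.37 and 14.40 at 72 h, against 14.14, 14.33 and 14.14 in controls. Its differences of -0.08, -0.05 and 0.18 had an SE of 0.17, and the 72 h arrays lay just above the controls. The 120 bases upstream of H4c4 (chr13:23581448-23581567, plus strand) and of H4c2 (chr13:23756817-23756936, plus strand) are shown as the H4 examples. These genes were picked with their distance from control known, and whether the marked elements go with that distance was not tested. Capitals mark CCAAT and TATAAA on either strand.
H4c4: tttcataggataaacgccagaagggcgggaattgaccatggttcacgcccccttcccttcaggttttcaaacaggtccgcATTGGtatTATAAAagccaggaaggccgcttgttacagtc
H4c2: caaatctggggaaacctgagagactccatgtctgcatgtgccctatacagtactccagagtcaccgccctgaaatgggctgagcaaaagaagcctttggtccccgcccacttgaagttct

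H4c1 and H4c3 were nearer to control. H4c1 (TC1300001645.mm.2), the H4 gene with the highest mean signal, differed by -0.33 ± 0.18 (SE) at 24 h, -0.39 ± 0.18 at 48 h and 0.14 ± 0.18 at 72 h, and its arrays lay below all controls at 24 h and 48 h and above them at 72 h. H4c3 differed by -0.19, -0.36 and 0.19. Of the 11 H4 genes, 8 were below control at 24 h, 7 at 48 h and 4 at 72 h, where 49.9%, 49% and 56.5% of all probe sets were. H4c6, H4c8 and H4c9 lay above the control mean at all 3 times, by 0.01 to 0.43, within the spread of the arrays, and were chosen after their values were seen.

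The linker histones H1 differ in when they are made, from the replication-dependent H1f1 to H1f5 to H1f10, which is expressed independently of replication. H1f10 (TC0600002672.mm.2) had the largest differences of all 57 genes at 24 h and 48 h, and a wide spread. Its signals were 6.43, 8.35 and 7.31 at 24 h, 8.45, 5.58 and 7.91 at 48 h and 9.20, 7.0 and 9.35 at 72 h, against 8.36, 8.47 and 9.73 in controls. HIFU_24h replicate 1, HIFU_48h replicate 2 and HIFU_72h replicate 2 were lowest in their groups. The difference was -1.49 ± 0.82 (SE) at 24 h, -1.54 ± 0.82 at 48 h and -0.34 ± 0.82 at 72 h (limma adjusted p = 0.587, 0.439 and 0.932).

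H1f5 (TC1300001560.mm.2) averaged 12.22 ± 0.47 (SD, n = 3) at 24 h, 12.16 ± 0.15 at 48 h and 12.35 ± 0.61 at 72 h, against 12.71 ± 0.32 in controls. H1f1 (TC1300000262.mm.2) averaged 11.85 ± 0.60, 11.87 ± 0.17 and 11.42 ± 0.73 at these times, against 12.24 ± 0.24 in controls, and was the member farthest below control at 72 h, at -0.82 ± 0.38 (SE) (limma adjusted p = 0.447). H1f3 differed by 0.13, -0.40 and 0.40. H1f2, chosen after its values were seen, differed by 0.00, 0.29 and 0.42. H1f7, which acts in spermatids, and H1f8, the oocyte linker histone, lay within 0.36 of control at each time.

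**Figure D4:**
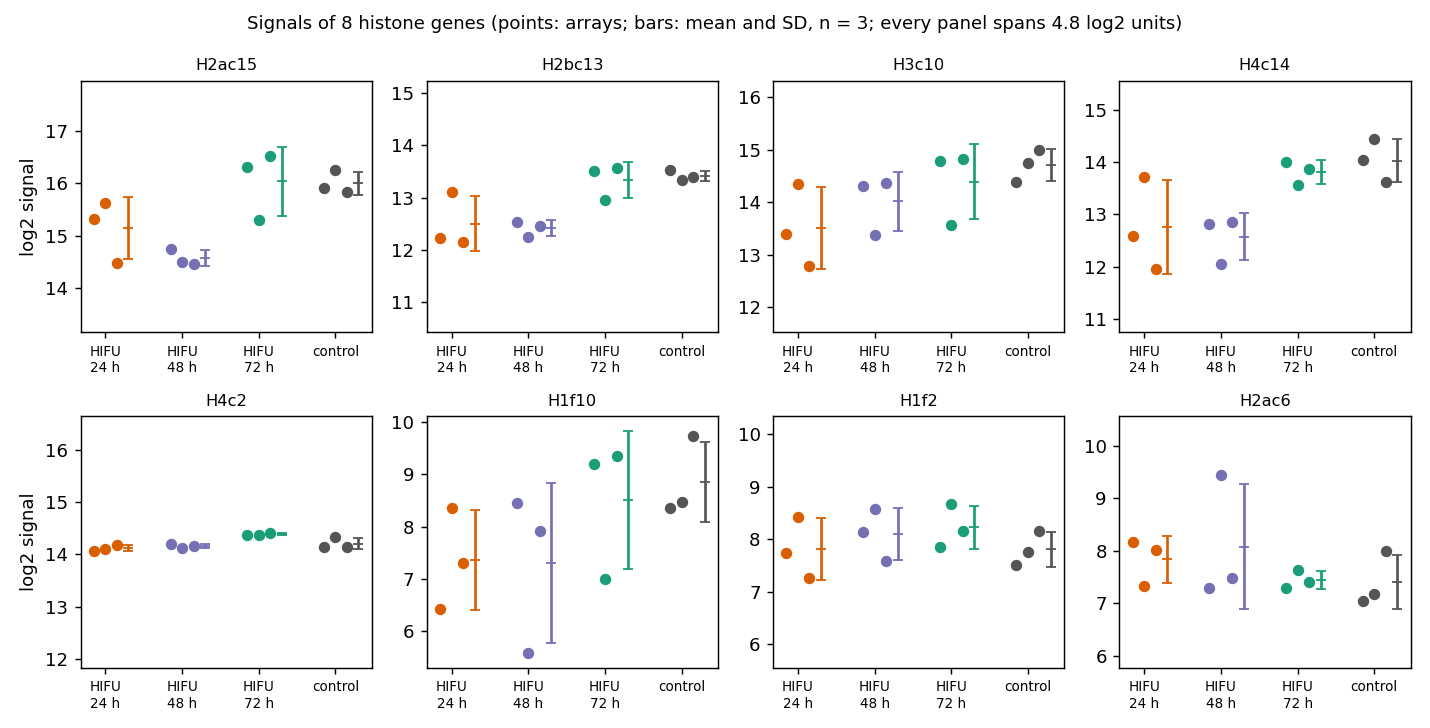
Log2 signals of 8 histone genes on the 12 arrays by group, with points for arrays and bars for the mean and SD (n = 3). Each panel spans the same number of log2 units. The 48 h signals of H2ac15 lie between 14.46 and 14.74, against 15.84 to 16.25 in controls, and those of H4c2 between 14.12 and 14.20, against 14.14 to 14.33.

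Between times, the histone genes were nearer to control at 72 h than before. The median over the 57 genes was 0.46 higher at 72 h than at 48 h and 0.42 higher at 72 h than at 24 h, and -0.09 at 48 h against 24 h. In the same order the median over all probe sets was -0.03, -0.04 and 0.00. At 48 h 33 members lay more than 0.5 below control, where 17.4% of all probe sets did so. All 33 were nearer to control at 72 h, which is in part fixed by choosing them for a low value at 48 h. Limma counted 0 histone genes past the adjusted threshold in any pair of times, where 0% of all probe sets passed. At an unadjusted p under 0.05, 18 histone genes were higher at 72 h than at 48 h and 8 higher at 72 h than at 24 h, where 3.33% and 3.22% of all probe sets were.

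For 23 of 57 genes all 3 arrays of 72 h lay above all 3 of 48 h, where 4.7% of all probe sets did so, and these included 10 of the 13 H2A genes, 7 of the 15 H2B genes, 5 of the 11 H4 genes, 1 H1 gene and 0 H3 genes. Against 24 h the arrays of 72 h lay above for 7 genes, where 4.53% of all probe sets did so, and the 7 included 1 of the 13 H2A genes. They lay below for 1 gene, a direction in which the share over all probe sets was not counted. H2ac15 was 1.47 ± 0.36 (SE) higher at 72 h than at 48 h (limma adjusted p = 0.735). HIFU_72h replicate 2 had the lowest H2ac15, H2bc13 and H3c10 signals of its group. Without that array the 72 h median over the 57 genes was 0.015, against -0.12 with it.

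The 250 bases upstream of each start were searched for 4 promoter elements on both strands, and no match of one element overlapped with a match of another. CCAAT was found upstream of 13 of 13 H2A genes, 13 of 13 H2B genes, 6 of 8 H1 genes, 6 of 8 H3 genes and 3 of 10 H4 genes, and upstream of 33.8% of the 32851 promoters in the table. The H2A and H2B counts share stretches, since a head-to-head pair has one. TATAAA was found upstream of 24 of 52 members and 12.4% of all promoters. ATTTGCAT was found upstream of 6 of 13 H2A and 6 of 13 H2B genes and 0 of the H1, H3 and H4 genes, and upstream of 1.6% of all promoters. AAACACA, the element of H1 promoters, was found upstream of 4 of 8 H1, 2 of 13 H2A, 2 of 13 H2B and 0 of the H3 and H4 genes, and upstream of 6.25% of all promoters. A match describes these letters only.

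The promoter of H1f5 carries 3 of these elements and that of H3c10 carries CCAAT and TATAAA. They are shown as the H1 and H3 examples, at chr13:21780626-21780755 (minus strand) and chr13:21717508-21717627 (plus strand), with capitals for the CCAAT box (CCAAT), the TATA box (TATAAA) and the H1 element (AAACACA) on either strand.
H1f5: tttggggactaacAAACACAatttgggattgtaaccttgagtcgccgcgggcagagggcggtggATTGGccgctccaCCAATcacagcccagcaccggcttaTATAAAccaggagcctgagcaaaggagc
H3c10: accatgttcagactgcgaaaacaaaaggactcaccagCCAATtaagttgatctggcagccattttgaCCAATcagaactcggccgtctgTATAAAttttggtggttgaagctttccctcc

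By chromosome, the 8 genes on chromosome 3 had a median of -0.92 at 24 h, -1.10 at 48 h and -0.31 at 72 h, and the 46 genes on chromosome 13 had -0.49, -0.59 and -0.08. The chromosome 3 genes include the 2 identical H3 probe sets and H4c14, so position and type are mixed in this comparison, which was not tested.

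Genes that act on histones or in the same phase of the cell cycle were compared by lists. For the counts below control, the shares over all probe sets were 49.9% at 24 h, 49% at 48 h and 56.5% at 72 h. Of the 9 replication-independent core variants, 8 were below control at 24 h and at 48 h and 6 at 72 h, with medians of -0.76, -0.56 and -0.38, and 0 passed the adjusted threshold at any time. Cenpa, the centromeric H3 variant, averaged 10.30 ± 0.54 (SD, n = 3) at 24 h, 10.47 ± 0.25 at 48 h and 11.04 ± 0.77 at 72 h, against 11.84 ± 0.47 in controls. H2az2, an H2A.Z gene, differed by -1.33 at 24 h, -1.07 at 48 h and -0.54 at 72 h, and H2az1 by -0.63, -0.30 and -0.38. H3f3a and H3f3b, which both encode H3.3, were lower at 72 h too, at -0.89 and -0.94. For H3f3b all 9 HIFU arrays lay below all 3 controls. H2ax, the variant phosphorylated at DNA breaks, differed by -0.76, -0.43 and 0.29, and Macroh2a1 by -0.43, -0.68 and 0.21.

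Of 11 measured factors of histone mRNA transcription and 3′ processing, 7, 7 and 8 were below control at 24 h, 48 h and 72 h, with medians of -0.13, -0.17 and -0.18. At these times 49.9%, 49% and 56.5% of all probe sets were below control. Slbp, which binds the stem-loop of histone mRNA, had signals of 10.08, 11.03 and 10.52 at 24 h, 9.88, 10.14 and 10.24 at 48 h and 11.22, 10.46 and 11.18 at 72 h, against 11.25, 11.14 and 10.87 in controls. Its 48 h arrays lay below the controls, and the difference was -1.0 ± 0.29 (SE; limma adjusted p = 0.228). Npat, the coactivator of histone transcription, differed by -0.48, 0.10 and -0.06. Zfp473, a component of the processing machinery, differed by 0.62, 0.27 and 0.51. Of 16 histone chaperones 12, 13 and 11 were below control, with medians of -0.22, -0.36 and -0.22. Asf1a, which carries H3 and H4, differed by -1.37, -1.55 and -1.07, and Daxx, a chaperone of H3.3, by -1.01, -1.62 and -0.88. None of the genes of these lists passed the adjusted threshold in limma. With array weights, of those named, Cenpa (24 h and 48 h), H3f3a (72 h) and Slbp (48 h) passed as lower. So did Asf1a (each time) and Daxx (48 h and 72 h). Array weights also raised the count over all 22206 probe sets, to 1118 at 24 h, 944 at 48 h and 1846 at 72 h. Slbp, Asf1a and Daxx were named for a small p on these same arrays, so their passing adds no separate support.

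Of 23 measured DNA replication genes, 22 were below control at 24 h, 18 at 48 h and 16 at 72 h, with medians of -0.74, -0.59 and -0.31. Of all probe sets 49.9%, 49% and 56.5% were below control at these times. Cdk2, a kinase of S phase entry, differed by -2.05 ± 0.53 (SE) at 24 h, -1.63 at 48 h and -1.25 at 72 h (limma adjusted p = 0.276 at 24 h). Rfc4, a clamp loader subunit, differed by -1.23, -1.16 and -1.11, with all 9 HIFU arrays below the controls. Pcna, the sliding clamp, differed by -0.42, -0.09 and 0.17. Of 19 mitosis genes, 19 were below control at 24 h, 16 at 48 h and 10 at 72 h, with medians of -0.61, -0.59 and -0.05. Kif11, a spindle motor, averaged 11.02 ± 0.05 (SD, n = 3) at 24 h, 11.35 ± 0.23 at 48 h and 12.06 ± 0.47 at 72 h, against 12.23 ± 0.34 in controls. Aurkb, a mitotic kinase, differed by -1.27, -1.14 and -0.46, and Mki67 by -0.21, -0.06 and 0.76. With array weights Cdk2 and Rfc4 passed as lower at 24 h and 72 h, Aurkb at 24 h and 48 h and Kif11 at 24 h, and Mki67 passed as higher at 72 h. Except for Mki67, these genes were named for a small p on the same arrays, so their passing adds no separate support. The counts over all probe sets with array weights are those given above. On HIFU_72h replicate 2 the replication median was -1.04 and the histone median -0.49. On the other 72 h arrays the replication medians were 0.14 and 0.05.

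Marker levels of other cell types also differed between the groups. Among the 18 skeletal muscle markers, Ttn and Neb, which encode titin and nebulin, were 4.36 and 4.29 above control at 24 h. Within each HIFU group the array with the highest muscle median, HIFU_24h replicate 1, HIFU_48h replicate 2 and HIFU_72h replicate 2, also had the lowest histone median. The macrophage median was highest on these same arrays, at 1.21, 2.78 and 3.09. Among the controls the order differed, and replicate 1 had the lowest muscle median and the lowest histone median (-0.11). The median of the 14 neutrophil markers was 0.98, 2.26 and 6.63 above control at 24, 48 and 72 h, with Ngp and Ltf, granule proteins, higher by 12.78 and 7.24 at 72 h. The 6 erythroid markers, among them Rhag and Gata1, had medians of 0.22, 1.01 and 3.41, and the 8 fibroblast markers, among them Dcn and Col1a1, of 2.82, 3.19 and 4.34. The 10 macrophage markers, among them Mrc1 and Lyz2, had medians of -0.13, 0.48 and 1.77, and the 12 lymphocyte markers, among them Cd79a and Prf1, of -0.47, -0.46 and -0.17. Of the macrophage markers 5, 3 and 0 were below control at these times, with C1qb lowest, at -1.23, -1.54 and 0.24. Among the lowest 25% of probe sets by mean signal were 5 of the 12 lymphocyte and 2 of the 6 erythroid markers. Only 6 of 12 listed erythroid markers were measured. The 14 neuroblastoma markers had medians of -0.06, 0.20 and -0.27, with Isl1 at 1.04, 1.41 and 0.35 and Gata2 at -1.96, -2.26 and -1.74. None of these markers passed the adjusted threshold in limma. With array weights, of those named, Neb, Ttn, Dcn and Lyz2 passed at each time, Col1a1 and Mrc1 at 24 h and 72 h, and Ngp, Ltf, Rhag and Gata1 at 72 h, all higher, while Gata2 passed as lower at 24 h. These markers too were named for a small p on the same arrays, and the counts over all probe sets with array weights are those given above. The part of these cell types in the histone differences was not tested.

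**Figure D5:**
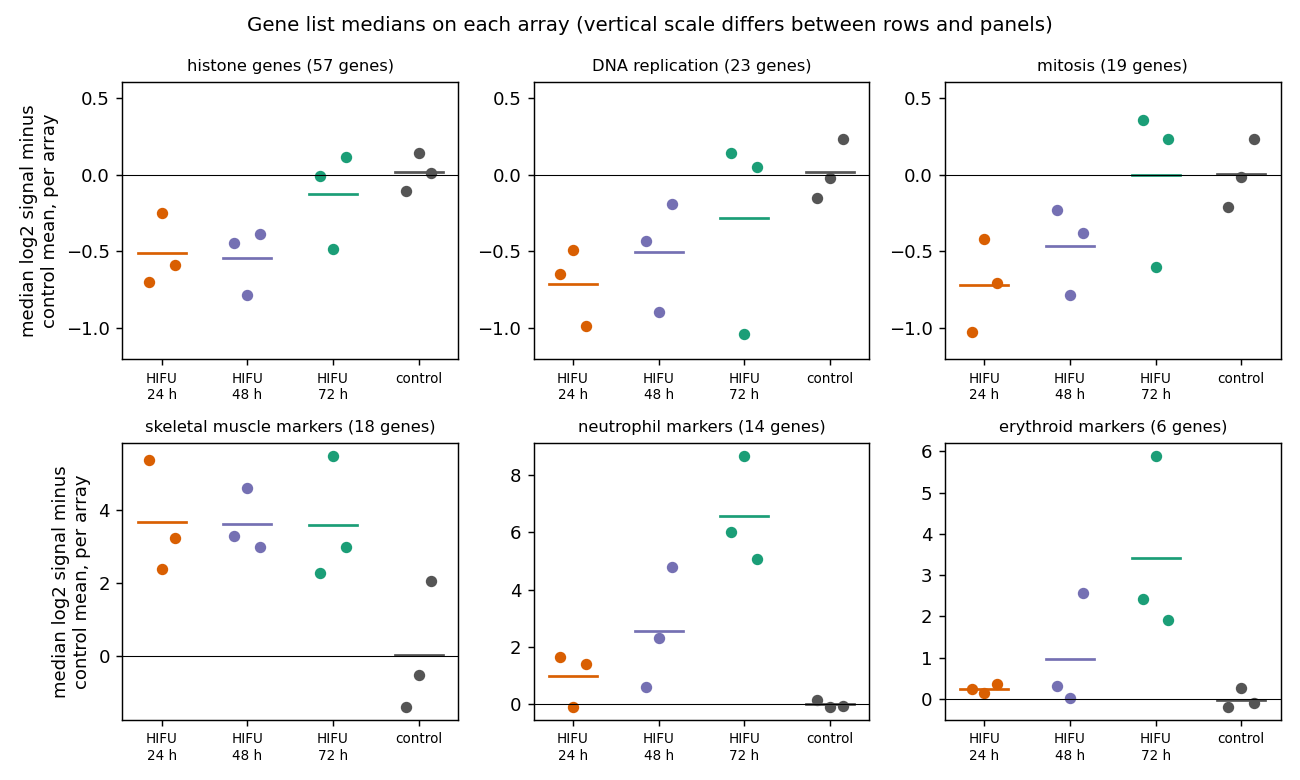
Median log2 signal of 6 gene lists on each array, after subtracting each gene's control mean, by group, with points for arrays and lines for group means. The upper panels share 1 vertical scale and the lower panels have their own. Histone medians lie between -0.79 and -0.25 at 24 h and 48 h, and skeletal muscle medians between 2.27 and 5.51 on all HIFU arrays.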

How the data were processed

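Array signals of 12 tumors were used as deposited: log2 values per probe set that the authors made, with Transcriptome Analysis Console 4.0 named in the submitters' processing notes. The log base was read from the range of the values. How the values were summarized, background-corrected and filtered, how reverse transcription was primed and which build was used: not given in the sources used here. No further scaling was applied, and every probe set was tested. Probe sets were named through the platform annotation, with 1 symbol for 19572, several for 0 and none for 2634; the 57 members were all found in the RefSeq gene table.

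The group comparison used limma 3.58.1 (R 4.3.3) with 8 residual and 3.37 prior degrees of freedom, with 1 mean per group over all 12 arrays, two-sided tests and Benjamini-Hochberg adjustment over 22206 probe sets. The contrasts were each HIFU time against control, their mean against control, and each pair of times. Errors are limma standard errors (SE) or standard deviations (SD). The fit was tested on simulated data. Figures were drawn with Python 3.11.15.

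Promoter sequences are from RefSeq, build GRCm38.p6. Members and lists were chosen with earlier results of these data known. For each type the genes named are the 4 with the smallest p of the F test over the 3 times. The 1 of each type with the highest mean signal was added. So were the replication-independent H1 genes, the 2 with the smallest p of each other list, and 9 histone and cell cycle genes given by name. Chgb, Dbh and C1qb are outside this rule, and the other exceptions are marked. Alternatives were a replicate block, a filter on the lowest 25% of probe sets, array weights, median centring, quantile normalization, robust estimation with an intensity trend, fits on the compared groups alone, probe sets averaged per gene, leaving out each array, and 3 chosen after seeing the data.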

Additional observations from a re-analysis of the deposited data

Results flagged for a closer look

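For 6 named genes all 3 arrays of an earlier time lay on one side of the control mean and all 3 arrays of 72 h on the other. Limma's contrasts between times passed the adjusted threshold for none of them, and the opposite sides were not tested otherwise. H4c1 lay 0.33 below at 24 h (-0.33) and 0.39 below at 48 h (-0.39), and 0.14 above at 72 h. H4c2 differed by -0.083 at 24 h, -0.047 at 48 h and 0.18 at 72 h. H1f3 differed by -0.40 at 48 h and 0.40 at 72 h, and H1f8 by 0.16 at 24 h and -0.26 at 72 h. Macroh2a1, which encodes macroH2A1, differed by -0.43 at 24 h, -0.68 at 48 h and 0.21 at 72 h. Pcna differed by -0.42 at 24 h and 0.17 at 72 h. These genes belong to the named genes, of which many were looked at, so some such patterns are likely by chance.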

How the results depend on the processing

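The 0 histone genes called at 24 h, 48 h, 72 h and for the mean of the HIFU groups held under all alternatives but array weights, which called 10, 14, 0 and 23 (9, 14, 0 and 22 with H3c14 and H3c15 counted once). The main counts of probe sets called were 12, 1, 2 and 4 at 24 h, 48 h, 72 h and for the HIFU mean, and 0 between times. With array weights they were 1118, 944, 1846 and 3787, and 7 for 72 h against 24 h, and the histone median at 24 h was -0.71. With the replicate block they were 3, 0, 1 and 1. The labels do not say whether the replicate numbers pair the tumors. The 18 same-numbered pairs of arrays correlated from -0.61 to 0.62, 4 of them above 0.1, and 2 of 12 arrays correlated best with their own number. With 3 arrays per group these correlations cannot decide it. Without the lowest 25% of probe sets the counts were 4 at 72 h and 15 for the HIFU mean; with quantile normalization 1 at 72 h; with an intensity trend 14 for the HIFU mean. Median centring gave 14 for the HIFU mean, 11 higher and 3 lower against 4 and 0, and 12 higher and 3 lower at 24 h against 11 and 1; it moved the median of all probe sets to -0.20 at 72 h, where the histone median was then -0.26. With only the groups compared the counts were 6 at 48 h and 2 for 72 h against 24 h. With the muscle median as a covariate they were 0, 0, 1 and 1, and the histone medians -0.14, -0.23, 0.15 and -0.11. Without the arrays with the highest erythroid medians, HIFU_48h replicate 3 and HIFU_72h replicate 2, they were 4 at 48 h, 28 at 72 h, 15 for the HIFU mean, 21 for 72 h against 24 h and 14 for 72 h against 48 h. Leaving out each array gave 0 to 253, 0 to 312, 1 to 194 and 1 to 398 probe sets, the highest each time without control replicate 3, 0 to 7 for 72 h against 24 h and 0 to 2 for 72 h against 48 h; it gave histone medians of -0.63 to -0.35 at 24 h, -0.75 to -0.47 at 48 h and -0.25 to 0.015 at 72 h. Over the 21 alternatives the H2A median ran from -0.90 to -0.36 at 24 h and -1.26 to -0.58 at 48 h, the H2B median from -0.74 to -0.07 and -0.86 to -0.33, and the H3 median from -1.47 to -0.54 and -0.88 to -0.11, the value nearest 0 each time with the muscle covariate. At 48 h the H1 median ran from -0.43 to -0.03 and the H4 median from -0.33 to -0.06. The causes were not tested.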
